A study of Homo sapiens with 8 samples.

Results

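The 43 genes described here encode histone lysine methyltransferases (30 genes) and histone lysine demethylases (13 genes), and their transcripts were measured by RNAseq in RKO cells after knockdown of A20. RKO is a human colon carcinoma cell line with intact beta-catenin signaling. A20, encoded by TNFAIP3, is a ubiquitin-editing enzyme best known for restraining NFkB signaling. The genes were chosen by the histone mark on which their enzyme acts, with their counts and their differences in these same samples already known, so the differences below are a description and are not independent evidence of a direction. They are 43 of the 57992 genes listed in the counts. All 43 passed the filter on low counts, as did 13412 genes in all. RNA libraries of 4 samples with control siRNA and 4 with A20 siRNA were compared, both from RKO cells kept in DMEM with fetal calf serum and both treated with 50 ng/mL recombinant human wnt3a for 24 hours. No library without wnt3a was used here, so the values describe knockdown within wnt3a-treated cells. The labels do not say whether the 4 replicates of a group were separate cultures, so the p-values measure only the spread between these libraries. Because the cells were measured in bulk, fewer cells expressing a gene and less RNA per cell cannot be told apart.

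Histone lysine methylation is written by methyltransferases that take the methyl group from S-adenosylmethionine, and it is removed by demethylases of the LSD1 family or of the larger Jumonji family. The position of the lysine sets what the mark is associated with. Methylation of H3K4 lies at promoters and enhancers and that of H3K36 and H3K79 in transcribed genes, whereas H3K9 and H3K27 methylation mark silenced chromatin and H4K20 methylation is linked to chromosome compaction and DNA repair. Several of these genes, among them KMT2C and KMT2D, are recurrently mutated in colon cancer.

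Total counts were between 21226451 and 34194273 per library, and 3 counts, the smallest level taken as detectable, corresponded to between 0.0875 and 0.141 CPM, the count relative to a TMM-scaled library total. Such floors cover counting error only. The 43 genes had between 131 and 10655 counts in any one library, so none was near this floor. As a check of the labels, TNFAIP3 stood at 5.47 ± 0.388 CPM in the 4 control libraries and at 3.33 ± 0.215 CPM in the 4 A20 siRNA libraries (mean ± SD), and the groups did not overlap. Its log2 fold change was -0.71 ± 0.095 (SE), with an adjusted p of 0.00258 by edgeR's quasi-likelihood test and a p of 0.0286 by an exact two-sided permutation test, the smallest that 4 against 4 libraries can give. Of the colon epithelial markers EPCAM, KRT8, KRT18 and CDX2 were detected, CDH1, KRT20, CDX1 and LGR5 were at 0 counts in every library, and VIL1 had at most 1 count. The leukocyte markers PTPRC and CD3E were at 0 counts, whereas CD68, a macrophage marker, had between 18 and 35 counts in every library (1.15 CPM with control siRNA and 0.972 CPM with A20 siRNA, adjusted p = 0.624). The fibroblast and endothelial markers had at most 4 counts.

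After A20 knockdown 6 of the 43 transcripts were called higher and 0 lower at an adjusted p under 0.05, from the quasi-likelihood test of edgeR with adjustment over all genes tested. All 6 encode methyltransferases or proteins classed with them: KMT2B, KMT2C and KMT2D of the H3K4 group, PRDM2 of the H3K9 group, SETD5 of the H3K36 group and KMT5A of the H4K20 group. Over all 13412 genes tested 0.634% were called higher and 0.611% lower. The differences were small, and the largest, in KMT2D, was a rise of 23.2%. No demethylase was called in either direction, and only 1 of the 13, KDM6B, had an unadjusted p under 0.05, against 14 of the 30 methyltransferases and 16.2% of all genes tested. None of the 43 was lower at an unadjusted p under 0.05, and DESeq2 and limma-voom also called 0 lower and 0 demethylases. Values were above 0 on the log2 scale for 34 of the 43 genes (79.1%), compared with 51.6% of all genes tested. The median log2 fold change was 0.04 over the 43 genes, 0.06 over the methyltransferases, 0.01 over the demethylases and 0.0027 over all genes tested. Whether methyltransferases and demethylases differ was not tested.

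**Figure D1:**
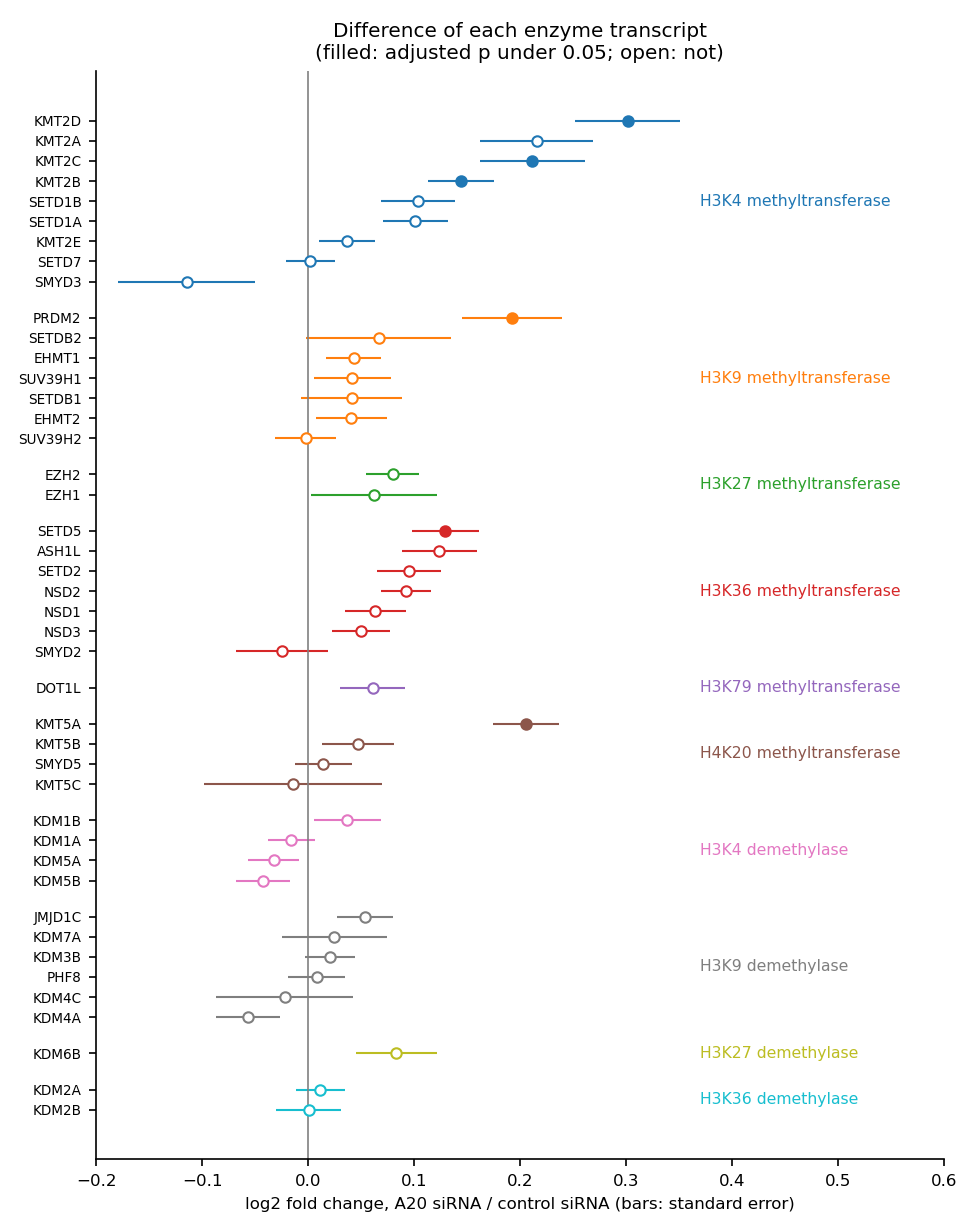
Log2 fold change with A20 siRNA against control siRNA (x axis, 4 libraries per group) for each of the 43 genes, grouped by histone mark, with bars of 1 standard error and filled points for an adjusted p under 0.05. The 6 filled points, KMT2D at 0.30 the highest, belong to methyltransferase groups, and all 13 demethylases lie within 0.1 of 0.

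The KMT2 genes held 3 of the 6 calls. They encode the large catalytic subunits of the COMPASS complexes, of which KMT2A and KMT2B act at promoters and KMT2C and KMT2D place H3K4 monomethylation at enhancers. KMT2D (ENSG00000167548, GRCh38 chr12:49018975-49060794) was 143.1, 113.3, 119.2 and 121.6 CPM in control replicates 1 to 4 and 155.9, 145.1, 152.5 and 161.0 CPM in A20 replicates 1 to 4. Every A20 siRNA library lay above every control library, although control replicate 1 came within 2 CPM of the lowest of them. The log2 fold change was 0.30 ± 0.049 (SE), with an adjusted p of 0.00825. KMT2D was also called in all 18 alternative fits, including each of the 8 that left out 1 library.

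KMT2B (ENSG00000272333, chr19:35717973-35738880) was 86.8, 79.0, 82.9 and 81.1 CPM in the control libraries and 87.6, 91.6, 92.6 and 93.6 CPM in the A20 siRNA libraries. The groups did not overlap, but A20 replicate 1 and control replicate 1 were less than 1 CPM apart. Its log2 fold change was 0.14 ± 0.031 (SE), with an adjusted p of 0.0333. The call held without control replicate 1, A20 replicate 1 or A20 replicate 2 and was lost without any of the other 5 libraries, where the adjusted p lay between 0.0837 and 0.123.

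KMT2C (ENSG00000055609, chr7:152134922-152436644) was 134.3, 108.4, 111.9 and 115.8 CPM with control siRNA and 138.6, 127.0, 136.0 and 144.9 CPM with A20 siRNA. Control replicate 1 was above A20 replicate 2, so the groups overlapped. Its log2 fold change was 0.21 ± 0.049 (SE), with an adjusted p of 0.0412, and the call held only without control replicate 1 or A20 replicate 2. Without any of the other 6 libraries the adjusted p was between 0.0594 and 0.155. In the annotation 5 pseudogenes carry the name of KMT2C, so reads shared with them may have been lost from its count of uniquely mapped reads.

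KMT2A (ENSG00000118058, chr11:118436456-118526832), the gene rearranged in mixed-lineage leukemia, lay just outside the threshold. It was 86.1, 68.7, 74.3 and 72.6 CPM in the control libraries and 88.0, 82.3, 85.6 and 96.4 CPM in the A20 siRNA libraries. Control replicate 1 was again higher than the other controls and exceeded A20 replicates 2 and 3. The log2 fold change of 0.22 ± 0.053 (SE) had an adjusted p of 0.0508. It fell to 0.000438 without control replicate 1 and to 0.0273 without A20 replicate 2, and lay between 0.0688 and 0.183 without any of the other 6 libraries. An annotated gene on the same strand, which has no row in the counts, covers 18.3% of the exonic bases of KMT2A.

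The other H3K4 methyltransferases did not pass the threshold. SETD1A and SETD1B, the catalytic subunits of the COMPASS complexes that place most H3K4 trimethylation, each had a log2 fold change of 0.10, with adjusted p of 0.103 and 0.143. KMT2E, whose own methyltransferase activity is uncertain, was at 0.04, and SETD7, a monomethyltransferase that also modifies other proteins, was at 0.00. SMYD3, a SET and MYND domain methyltransferase, had the lowest log2 fold change of the 43 genes. It was 13.4, 15.1, 13.0 and 13.2 CPM with control siRNA and 13.9, 11.9, 12.3 and 12.1 CPM with A20 siRNA. The groups overlapped through A20 replicate 1, and the log2 fold change was -0.11 ± 0.064 (SE), with an adjusted p of 0.394.

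Among the H4K20 enzymes KMT5A (ENSG00000183955, chr12:123384132-123409353), which places the first methyl group on H4K20 and is tied to the cell cycle, had the smallest adjusted p of the 43 genes. It was 42.0, 43.2, 42.1 and 43.8 CPM in the control libraries and 48.5, 50.3, 48.5 and 50.1 CPM in the A20 siRNA libraries. The groups were separated by more than 4 CPM, over a spread of 0.905 CPM (SD) in the controls and 0.965 CPM (SD) with A20 siRNA. The log2 fold change was 0.21 ± 0.032 (SE), with an adjusted p of 0.00592. KMT5A was called in all 18 alternative fits. In the annotation 3 pseudogenes carry its name. KMT5B and KMT5C, which add the further methyl groups, were at 0.05 and -0.01, and SMYD5 was at 0.01.

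**Figure D2:**
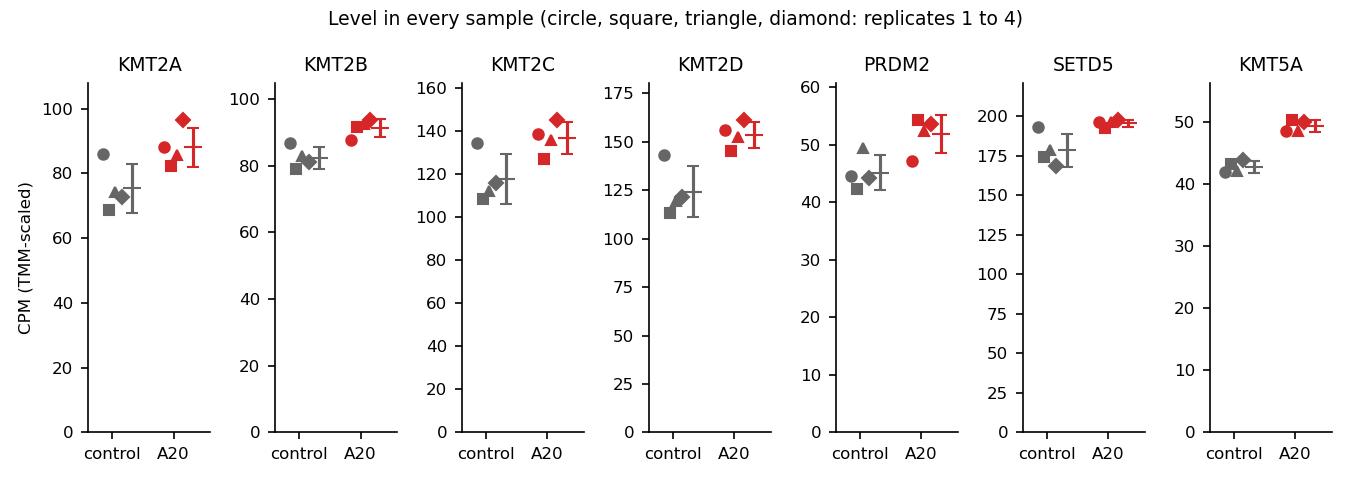
CPM in each of the 8 libraries (y axis, from 0) for the 6 transcripts called higher and for KMT2A, with gray control siRNA points, red A20 siRNA points and bars of mean ± SD (n = 4 per group). Control replicate 1, drawn as a circle, is the highest control for KMT2A, KMT2B, KMT2C, KMT2D and SETD5, and the 2 groups of KMT5A are apart.

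PRDM2 (ENSG00000116731, chr1:13700188-13825079), a zinc finger protein of the PR domain family classed here with the H3K9 methyltransferases, was 44.6, 42.4, 49.5 and 44.2 CPM with control siRNA. With A20 siRNA it was 47.1, 54.2, 52.4 and 53.6 CPM. Control replicate 3 was above A20 replicate 1, so the groups overlapped. Its log2 fold change of 0.19 ± 0.047 (SE) had an adjusted p of 0.0498, the closest of the 6 to the threshold. The call held without control replicate 1, control replicate 3 or A20 replicate 1, and the adjusted p was between 0.0877 and 0.177 without any of the other 5 libraries. The remaining H3K9 methyltransferases were not called. SETDB1, which silences transposable elements, was at 0.04 on the log2 scale, its relative SETDB2 at 0.07, and SUV39H1 and SUV39H2, the enzymes of constitutive heterochromatin, at 0.04 and 0.00. EHMT1 and EHMT2, which work as a heterodimer in euchromatin, were both at 0.04.

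SETD5 (ENSG00000168137, chr3:9397615-9479240), classed here with the H3K36 methyltransferases although its catalytic activity is disputed, was 192.8, 173.9, 178.8 and 168.5 CPM in the control libraries. In the A20 siRNA libraries it was 196.4, 192.4, 196.0 and 197.3 CPM. The groups overlapped by less than 1 CPM, through control replicate 1. Its log2 fold change was 0.13 ± 0.031 (SE), with an adjusted p of 0.0467. As for KMT2C, the call held only without control replicate 1 or A20 replicate 2, and the adjusted p was between 0.0718 and 0.185 without any of the other 6 libraries.

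NSD2, ASH1L and SETD2 of the H3K36 group came nearest to the threshold without passing it. NSD2, which places H3K36 dimethylation, was the most highly counted of the group and did not overlap between groups, at 299.1, 290.4, 286.1 and 282.3 CPM with control siRNA and 310.7, 309.6, 313.5 and 300.7 CPM with A20 siRNA. Its log2 fold change was 0.09 ± 0.024 (SE), with an adjusted p of 0.0558. ASH1L, another dimethyltransferase, was 121.4, 106.0, 114.2 and 113.6 CPM with control siRNA and 127.2, 117.1, 125.0 and 127.5 CPM with A20 siRNA. Control replicate 1 exceeded A20 replicate 2, and the log2 fold change was 0.12 ± 0.035 (SE), with an adjusted p of 0.0781. SETD2, the main enzyme of H3K36 trimethylation, was at 0.10 with an adjusted p of 0.116. NSD1 was at 0.06, NSD3 at 0.05 and SMYD2 at -0.02. DOT1L, the H3K79 methyltransferase, was at 0.06.

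EZH2 and EZH1 are the alternative catalytic subunits of the polycomb repressive complex that methylates H3K27. EZH2 was 105.2, 102.8, 102.0 and 102.9 CPM with control siRNA and 106.1, 110.1, 108.7 and 112.0 CPM with A20 siRNA. The groups did not overlap, but the log2 fold change of 0.08 ± 0.025 (SE) had an adjusted p of 0.111. EZH1, at a much lower count, was at 0.06 with a larger error of 0.059 (SE).

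In all, 5 of the 43 transcripts, KMT2B, KMT2D, EZH2, NSD2 and KMT5A, were higher in every A20 siRNA library than in every control library, where 3.71% of all genes tested were. KDM4A was the 1 gene lower in every A20 siRNA library, where 3.9% of all genes tested were.

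The demethylases showed smaller differences. Of the H3K4 demethylases KDM1A (LSD1), a flavin-dependent enzyme of the CoREST complex, was at -0.02, KDM1B at 0.04, KDM5A at -0.03 and KDM5B at -0.04 on the log2 scale. KDM5B was 108.9, 103.4, 104.0 and 105.7 CPM with control siRNA and 102.6, 101.5, 101.4 and 104.6 CPM with A20 siRNA. These values overlapped, and the adjusted p was 0.427. With a correction for exonic length and GC content the log2 fold change of KDM5B was -0.09 and its adjusted p 0.0392.

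Among the H3K9 demethylases KDM4A was 50.1, 49.8, 50.1 and 50.4 CPM with control siRNA and 48.1, 46.8, 49.2 and 48.7 CPM with A20 siRNA. The difference was larger than the spread of the controls, but the log2 fold change of -0.06 ± 0.030 (SE) had an adjusted p of 0.361. An annotated gene on the same strand, which has no row in the counts, covers 40.2% of the exonic bases of KDM4A. KDM3B was 216.2, 210.8, 211.8 and 207.9 CPM with control siRNA and 214.4, 209.1, 215.2 and 220.9 CPM with A20 siRNA. KDM4C was 9.61, 9.55, 8.95 and 9.56 CPM with control siRNA and 9.36, 9.27, 8.56 and 9.97 CPM with A20 siRNA. The groups overlapped for both, and their log2 fold changes were 0.02 and -0.02. JMJD1C was at 0.05, KDM7A at 0.02 and PHF8 at 0.01.

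KDM6B (JMJD3), the H3K27 demethylase known as an NFkB-responsive gene in macrophages, was 101.1, 87.1, 95.6 and 93.4 CPM with control siRNA and 98.2, 96.6, 99.4 and 106.8 CPM with A20 siRNA. Control replicate 1 exceeded 3 of the 4 A20 siRNA libraries. At 0.08 ± 0.038 (SE) its log2 fold change was the highest of the demethylases, with an adjusted p of 0.287. KDM6B was called higher in 1 of the 18 alternative fits, the one without control replicate 1. There its log2 fold change was 0.12, with an adjusted p of 0.0464 by the quasi-likelihood test, and 4.19% of all genes tested were called higher. The H3K36 demethylases KDM2A and KDM2B, which bind unmethylated CpG islands, were at 0.01 and 0.00.

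Levels can be compared between genes only per length, so CPM were divided by the kilobases of all annotated exons. In the control libraries the highest levels were those of KDM3B (26.9 CPM per kilobase), SMYD5 (24.1), SUV39H2 (23.7), SETD7 (22.2), JMJD1C (21.2) and KDM2A (20.2). The lowest were KDM4C (0.912 CPM per kilobase), KMT5C (1.32), SETDB2 (1.52), EZH1 (2.13) and KMT2C (2.21). KDM3B was thus the highest by this measure and KDM4C the lowest. The order depended on the length used, which was an alternative chosen after seeing the data. Divided by the length of the canonical transcript, KDM1A was highest at 96.9 CPM per kilobase, SETD7 and EZH2 followed at 45.4 and 38.9, and SETDB2 was lowest at 1.62. By the length of all exons EZH2 had held place 20 and KDM1A place 7. Of the 6 called transcripts none was among the 10 highest by either length.

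**Figure D3:**
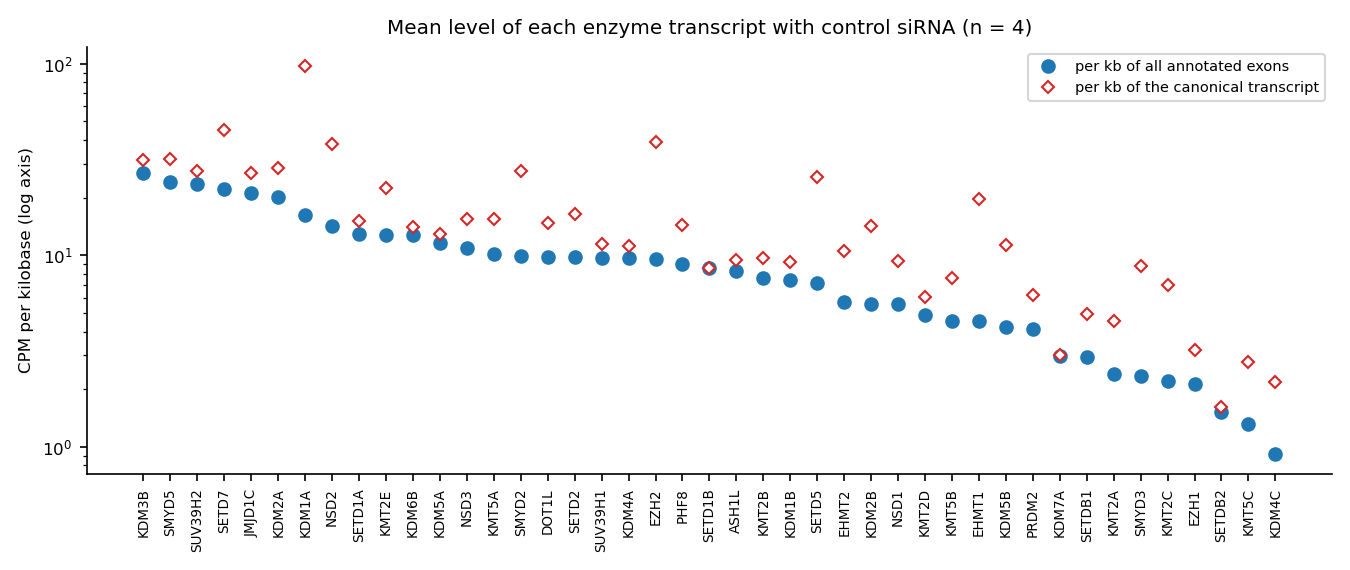
Mean level of each of the 43 transcripts in the 4 control siRNA libraries in CPM per kilobase (y axis, log scale), ordered by the level per kilobase of all annotated exons (filled circles), with the level per kilobase of the canonical transcript beside it (open diamonds). KDM3B is highest and KDM4C lowest by the first measure, and KDM1A moves from 16.3 to 96.9 with the second.

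Summed by mark, the levels per kilobase of the methyltransferases came to 255.6 ± 4.23 CPM per kilobase in the control libraries and 268.0 ± 1.86 in the A20 siRNA libraries (mean ± SD, n = 4 each). The control libraries lay between 251.1 and 260.7 and the A20 siRNA libraries between 266.2 and 269.6, without overlap. The sum over the demethylases was 148.8 ± 2.57 and 150.4 ± 2.62 (mean ± SD, n = 4 each), with overlapping groups. The ratio of the methyltransferase sum to the demethylase sum was between 1.71 and 1.74 in the control libraries and between 1.75 and 1.80 in the A20 siRNA libraries. In the sums for single marks each gene was counted under 1 mark only, so any action on a further mark is not covered. For H3K4 the methyltransferases summed to 75.9 ± 2.58 and 80.5 ± 1.76 CPM per kilobase (SD, n = 4 each). The H3K4 demethylases summed to 39.5 ± 0.562 and 39.1 ± 0.153. The groups overlapped for both. Control replicate 1 had a methyltransferase sum of 79.26, above 78.96 and 79.12 in A20 replicates 1 and 2. For the other marks with demethylases, both mean sums were higher with A20 siRNA. The methyltransferases went from 52.2 to 53.5 (H3K9), 11.7 to 12.4 (H3K27) and 65.8 to 69.3 (H3K36). The demethylases went from 70.7 to 71.7, 12.8 to 13.6 and 25.8 to 26.0. For each of these marks the control and A20 siRNA libraries overlapped in both sums. These sums rest on the same genes and samples as the differences above and were not tested. They were made with the length of all annotated exons only. Per kilobase of the canonical transcript KDM1A, an H3K4 demethylase, stood at 96.9 in place of 16.3 CPM in the control libraries. The size of the methyltransferase sums against the demethylase sums therefore depends on the length used. Sums by canonical length were not made. The 43 genes together held between 0.434% and 0.461% of the counts of a control library and between 0.458% and 0.474% of those of an A20 siRNA library.

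The transcripts were long, and difference and length moved together over all genes tested. Exonic length had a median of 10381 bases over the 43 genes, compared with 4982 bases over all genes tested, and 26 of the 43 were in the 2 deciles of longest genes. Over all genes the median log2 fold change went from -0.02 in the shortest decile to 0.03 in the longest, where 67.5% of genes were above 0 and 2.33% were called higher. Measured against the median of their own length decile, 31 of the 43 genes were above it, by a median of 0.03. Spearman's rho between length and log2 fold change was 0.18 across 13316 genes and 0.33 across the 43, as a description, since genes share the libraries. Within single libraries rho between length and centred level was between -0.20 and -0.11 in control replicates 2, 3 and 4 but 0.09 in control replicate 1, and 0.08, 0.16 and 0.19 in A20 replicates 1, 3 and 4 but -0.08 in A20 replicate 2. The libraries that stood apart in this way, control replicate 1 and A20 replicate 2, were also those that overlapped for KMT2C, SETD5 and ASH1L. For KMT2A control replicate 1 exceeded A20 replicate 3 as well, and PRDM2 overlapped through control replicate 3 and A20 replicate 1. The part of control replicate 1 and A20 replicate 2 in the differences was not tested. With a correction for exonic length 3 of the 43 genes, KMT2B, KMT2D and KMT5A, were called higher and KDM5B lower, while 0.678% of all genes were called higher. With length and GC content corrected together 5 were called higher, KMT2A and KMT2C being added, with 0.723% of all genes. Of the genes called as reported, KMT2C, KMT2D and SETD5 were in length decile 10 and KMT2B and PRDM2 in decile 9. KMT5A, with 4215 exonic bases, was in decile 5 of 10.

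**Figure D4:**
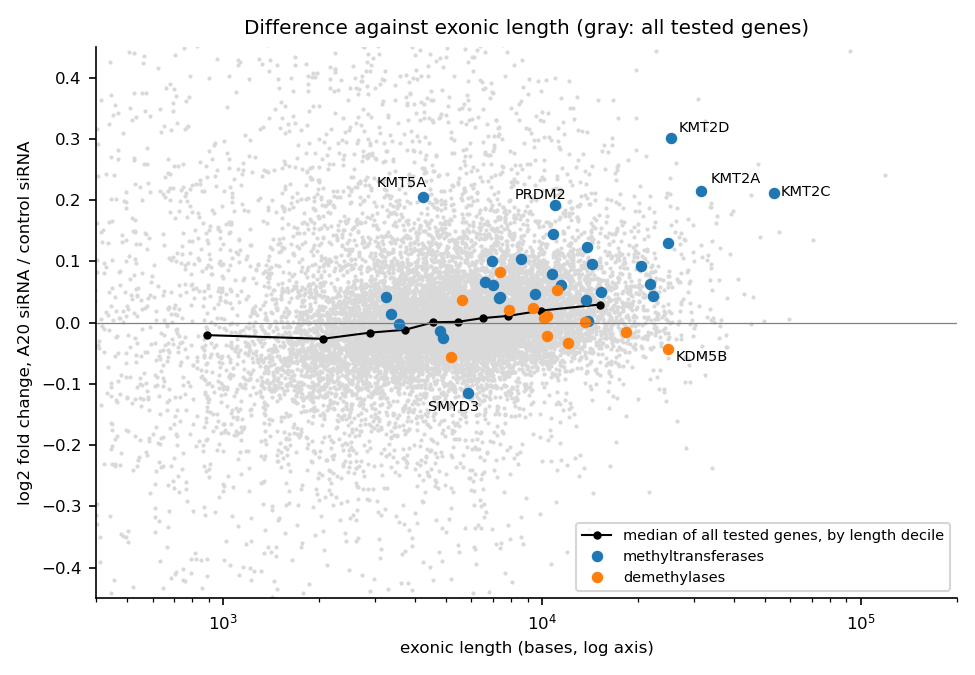
Log2 fold change with A20 siRNA against control siRNA (y axis, with genes beyond the drawn range left out) against exonic length in bases (x axis, log scale) for all genes tested (gray), methyltransferases (blue) and demethylases (orange), with the median of all genes by length decile (black line). The black line climbs from -0.02 to 0.03, and KMT2D at 0.30 and KMT5A at 0.21 lie above it.

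The calls shifted with the fit and with the library left out. As reported 6 genes were called higher, and leaving out 1 library at a time gave between 2 and 14. The 14 came without control replicate 1, when 4.19% of all genes tested were called higher. It was 2, KMT2D and KMT5A, without control replicate 2, control replicate 4, A20 replicate 3 or A20 replicate 4, when between 0.0443% and 0.192% of all genes were called higher, and 3 without control replicate 3. Beside KMT2D and KMT5A, called in all 18 alternatives, KMT2B was called in 13 of 18, KMT2C, SETD5 and PRDM2 in 9 each, KMT2A in 7, NSD2 in 6 and ASH1L in 5. Each DESeq2 fit also called 6 genes, with NSD2 in place of KMT2C.

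**Figure D5:**
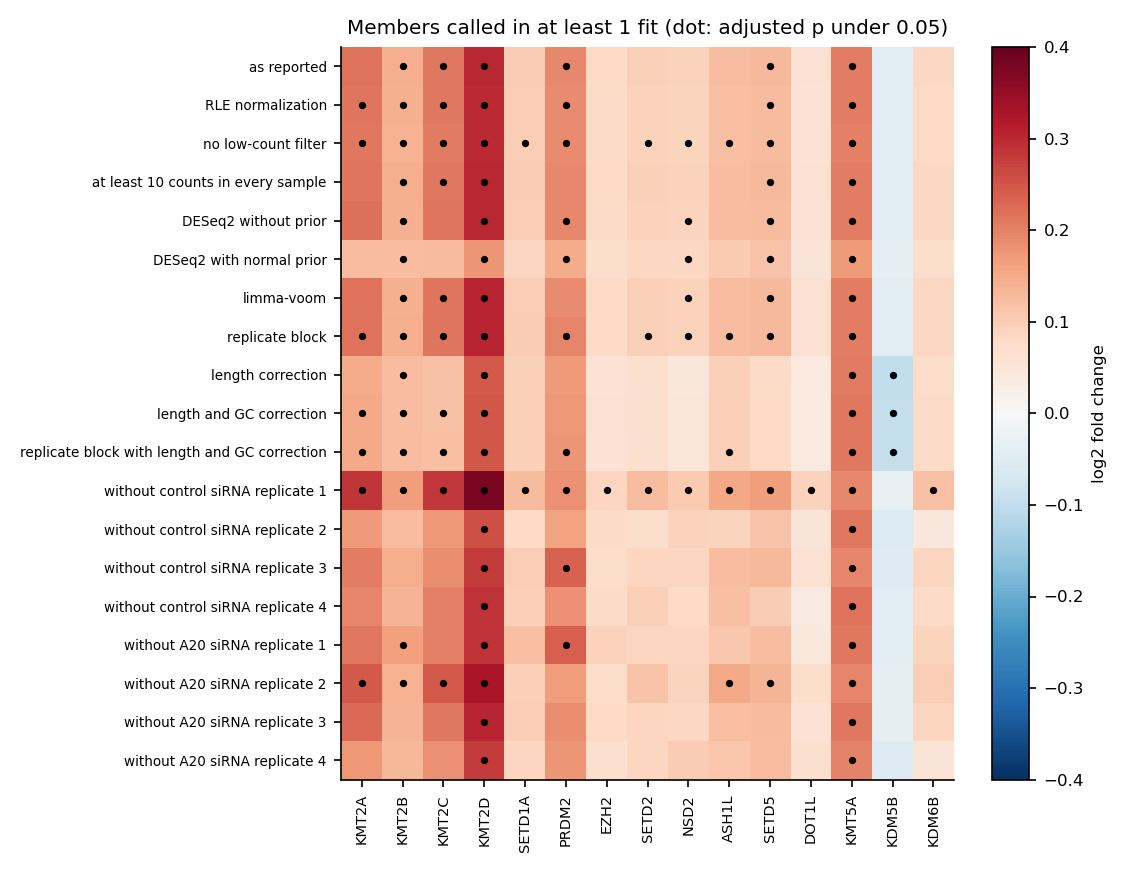
Log2 fold change (color) of the members called in at least 1 fit (columns), as reported and under each of the 18 alternatives (rows), with a dot for an adjusted p under 0.05. KMT2D and KMT5A have a dot in every row, and the row without control replicate 1 has 14 dots.

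The promoters of KMT2D, KMT5A and KMT2B are shown because these transcripts were called and did not overlap between groups. Each line gives the bases just upstream of the annotated start, 5′ to 3′ on the strand of the gene, from RefSeq on GRCh38.p14, and the capitals mark matches to a motif on either strand, which may overlap. They lie at chr12:49060795-49061044 (KMT2D, minus strand), chr12:123383882-123384131 (KMT5A, plus strand, the first of its starts) and chr19:35717753-35717972 (KMT2B, plus strand). In KMT2D the capitals are the SP1 box GGGCGG and the E-box CACGTG, in KMT5A the SP1 box and a CCAAT box, and in KMT2B an NFkB site and a run of SP1 boxes read on the other strand.
KMT2D: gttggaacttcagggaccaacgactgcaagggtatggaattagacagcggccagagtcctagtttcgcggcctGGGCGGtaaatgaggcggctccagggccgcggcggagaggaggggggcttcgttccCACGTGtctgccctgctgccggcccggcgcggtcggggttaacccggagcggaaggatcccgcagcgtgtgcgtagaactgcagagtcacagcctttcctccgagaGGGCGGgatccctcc
KMT5A: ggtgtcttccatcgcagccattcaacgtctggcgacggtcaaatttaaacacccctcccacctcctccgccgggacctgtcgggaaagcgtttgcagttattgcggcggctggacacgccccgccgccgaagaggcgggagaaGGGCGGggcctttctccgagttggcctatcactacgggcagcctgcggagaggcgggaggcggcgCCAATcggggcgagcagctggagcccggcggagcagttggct
KMT2B: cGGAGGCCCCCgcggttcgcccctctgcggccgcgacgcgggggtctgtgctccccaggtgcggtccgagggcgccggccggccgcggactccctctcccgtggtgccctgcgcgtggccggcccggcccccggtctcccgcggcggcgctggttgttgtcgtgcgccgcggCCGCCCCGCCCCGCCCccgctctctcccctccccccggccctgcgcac

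A promoter window, from 250 bases before to 50 after the start, was found for 40 of the 43 genes. The windows were rich in G and C, with a median of 69.2% GC compared with 58.7% over all 35116 windows, and a median of 30 CpG dinucleotides compared with 14. The SP1 box GGGCGG was in 87.5% of the 40 genes and in 48.3% of the 27305 genes with a window. A gene counted if any of its windows matched, and there were 62 windows for the 40 genes and 35116 for the 27305. The 27305 were not limited to the genes tested here, so the shares rest on unlike sets. The other motifs were closer to the background. CCAAT was in 40% of the 40 genes and 39.7% of all, the TCF/LEF core CTTTGA in 15% and 15.5%, and the NFkB site in 20% and 13.3%. The E-box CACGTG was in 15% and 8.77%, and the ETS core CCGGAAG in 15% and 12.2%. TGACGT of the CRE was in 12.5% and 9.64%, and GCATGCGC of NRF1 in 5% and 3.68%. The SP1 box was in all 6 called genes. The NFkB site was in 4 of them (KMT2B, PRDM2, SETD5 and, outside the stretch printed above, KMT5A). CCAAT was in 3, and the E-box, TGACGT and the TCF/LEF core in 1 each, the last in PRDM2. The ETS core and the NRF1 motif were in 0. These counts over 6 genes were not tested. A match is a description of the letters and not a bound site.

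Genes that work with these enzymes but are not among the 43 were examined from a list of 58 further lysine methylation enzymes, partner subunits, readers and enzymes of S-adenosylmethionine supply. Of these 56 were tested, and PRDM9 and SMYD1 had no count in any library. None of the 56 was called by edgeR's quasi-likelihood test, 13 had an unadjusted p under 0.05 (against 16.2% of all genes tested), DESeq2 called 1, AFF1, and limma-voom called 0. Their log2 fold changes were above 0 for 28 and below 0 for 28, with a median of -0.002. The closest were NCOA6, a subunit of the KMT2C and KMT2D complexes, at 0.11 with an adjusted p of 0.0534, and AFF1, a partner of DOT1L in elongation complexes, at 0.12 with 0.0569. Of the 12 COMPASS partners 6 were above 0, with a median of -0.002, and of the 9 partners of EZH2 3 were, with a median of -0.02. Other sets were higher. Of the 5 partners of DOT1L 4 were above 0 (median 0.06), and of the 9 partners of LSD1 and CoREST 5 were (median 0.02). Of the 7 partners and readers of H3K9 methylation 4 were above 0 (median 0.02). Of the 3 genes of S-adenosylmethionine supply 1 was (median -0.03). The 11 further enzymes of lysine methylation that were tested had a median of -0.01 and 5 above 0. Among them KDM6A, the H3K27 demethylase found with KMT2D in one complex, was at 0.11 with an adjusted p of 0.128. The 43 genes were chosen with such values known, so their higher share above 0 is not independent of the choice.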

How the data were processed

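RNAseq counts of 8 samples of RKO cells were used, 4 per group, grouped by the sample labels. The authors trimmed reads with Trimmomatic, mapped them with STAR to GRCh38.p7 on a GENCODE annotation and deposited raw counts of uniquely mapped reads per gene. The GENCODE release and strand setting are not given in the sources used here, so reads of antisense and overlapping genes cannot be told apart. Genes were kept by filterByExpr (minimum count 10), normalized by TMM and tested with edgeR 4.0.16's quasi-likelihood test (R 4.3.3) without covariates, with Benjamini-Hochberg adjustment over 13412 genes and a threshold of 0.05. The fit was tested on simulated counts, which held no length trend between libraries. It called 63.6% of the changes of 0.2 on the log2 scale, 82.1% of those of 0.5 and 95.3% of those of 1. Of its calls 5.95% were false. Smaller changes were not simulated, and 32 of the 43 genes had a log2 fold change within 0.1 of 0. Levels are CPM scaled by TMM. Symbols, lengths and coordinates came from GENCODE 44 (GRCh38) by identifier without version, for 56948 of 57992 genes. The members and lists were chosen with earlier results of these data known. The text names all 43 genes and gives every sample's value for called genes, the 3 largest differences not called, the highest and lowest level, and, chosen after their values were seen, NSD2, EZH2, KDM4A, KDM5B and KDM6B. The alternatives were RLE normalization, no filter, a minimum of 10 counts per sample, limma-voom (limma 3.58.1), DESeq2 1.42.0 both without and with its prior, a replicate block, loess corrections (span 0.5) for length and for length with GC, and each sample left out.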

Additional observations from a re-analysis of the deposited data

Results flagged for a closer look

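In 4 of the 86 groups of 4 samples (43 genes in 2 groups), 1 sample lay far from the other 3 by the ratio of its gap to the range of the group (Dixon's test), and chance flags about 1 in 20 groups, or 4.3 of the 86. SETD7 in control siRNA replicate 2 was 300.3 CPM, below 310.9 to 312.4 CPM in the others, with a ratio of 0.875. SETD7 in A20 siRNA replicate 3 was 318.6 CPM, above 305.5 to 306.9 CPM, with a ratio of 0.892. SETD2 in A20 siRNA replicate 2 was 143.0 CPM, below 150.7 to 152.3 CPM, with a ratio of 0.83. KDM4C in control siRNA replicate 3 was 8.95 CPM, below 9.55 to 9.61 CPM, with a ratio of 0.909. None of the 3 genes was called in the comparison as reported.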

How the results depend on the processing

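In place of the 6 genes called higher, 11 were called with no low-count filter, 10 with the replicate block, 7 with the replicate block with length and GC correction and 3 with the length correction, and between 2 and 14 with 1 library left out. The share of all genes called higher moved as well, from 0.634% to 1.09%, 1.95%, 1.63% and 0.678% in those 4 fits. The correlations of deviations between same-numbered samples were 0.10, 0.05, 0.06 and -0.02. Samples of different numbers were not compared, so these values do not settle whether same-numbered samples were paired. The count of genes called lower rose from 0 to 1 (KDM5B) with the length correction, with the length and GC correction, and with the replicate block with length and GC correction. In place of 0 of the other lysine methylation genes, 3 were called with no low-count filter, 1 with DESeq2 with or without its prior, 2 with the replicate block alone or with length and GC correction, and between 0 and 7 with 1 library left out. No log2 fold change changed sign while called. Over the 43 genes and 18 alternatives, 685 values counted as the same, 28 as moved, 29 gained a call and 32 lost one. Genes not called as reported counted as the same if they stayed uncalled within their error, and as moved if they shifted further. Genes called as reported counted as the same whenever they stayed called in the same direction, whatever the shift. KMT2D, for example, went from 0.30 to 0.18 with DESeq2's prior and to 0.38 without control replicate 1. Per kilobase, 40 of 43 levels moved by more than their SD with the canonical transcript length. The largest errors were those of SMYD3, SETDB2, KMT5C and KDM4C, which were also among the members with the fewest counts. The cause of these shifts was not tested.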
